A study of Mus musculus with 6 samples.

Results

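The cytoplasmic ribosomal protein genes, which encode the protein parts of the ribosome, were described in cultured mouse lung fibroblasts with and without the secreted protein DKK1. Members were chosen by symbol: every gene named Rps or Rpl followed by a number, with an optional letter, plus Rpsa, Rplp0, Rplp1 and Rplp2. Genes with -ps in the symbol and the Rps6k kinases were left out. The rule gave 88 genes of the 45706 in the table, 36 with small-subunit and 52 with large-subunit symbols. Of these, 83 were annotated as protein coding and 5 as pseudogenes (Rpl6l, Rps12l1, Rps3a2, Rps3a3 and Rps4l). Leaving out the pseudogenes and the 6 protein-coding paralogues (second copies of a ribosomal protein gene: Rpl22l1, Rpl3l, Rpl10l, Rpl39l, Rpl7l1 and Rps27l) left 77 canonical genes, 31 of the small and 46 of the large subunit.

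The cells were primary fibroblasts grown out of collagenase-digested lungs of wild-type mice. The control group held 3 samples of these cells. The DKK1 group held 3 samples given recombinant mouse DKK1, an inhibitor of Wnt signalling that binds the co-receptors LRP5 and LRP6, at 30 ng/ml for 24 h. Replicates carry the numbers 1 to 3 within each group, but the labels do not say how many mice or cultures they came from, how the fibroblasts were purified, the age of the mice or what the control cells received, so p-values measure only the spread between these samples. Library totals ranged from 22565917 to 34727102 counts.

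The fibroblast markers Col1a1, Col1a2, Pdgfra, Pdgfrb, Dcn, Lum, Thy1 and Vim, 8 of 8 of which were detected in every library, summed to 11935 to 13621 CPM (counts scaled to the same total in every library) in controls and 11257 to 12716 with DKK1. Other lung cell types were present at low level. The summed level was 27.6 to 92.7 CPM in controls and 26.3 to 90.6 with DKK1 for 7 epithelial markers, and 20.8 to 59.2 and 18.9 to 58.2 for 5 endothelial markers. It was 55.2 to 98.7 and 67.2 to 113 CPM for 7 leukocyte markers, of which Cd3e was at 0 in all 6 libraries, and 9.73 to 28.1 and 10.4 to 31.6 CPM for 4 mesothelial markers. In both groups replicate 3 had the highest sum of each of these 4 lists and the lowest fibroblast sum. Krt8, an epithelial keratin, for example, was at 56.5 and 51.6 CPM in control and DKK1 replicate 3 and at 16.8 to 20.9 CPM in the other 4 libraries. Their part in the results was not tested.

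Each ribosome is built from a small subunit, which reads the messenger RNA, and a large subunit, which joins the amino acids. Most of their proteins are needed in equal number, one copy per ribosome, and their genes are among the most highly transcribed in growing cells. Many of their messenger RNAs begin with a terminal oligopyrimidine (TOP) tract, a C followed by a run of C and U, through which mTOR and Larp1 control translation. That control acts on how often a message is read, which RNA counts do not measure.

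Annotated starts show this feature of the class. Of the 88 members, 63 matched a start in the RefSeq promoter table (GRCm38.p6), with 75 starts in all. A C at the annotated first base followed by at least 4 bases that were each C or T, read on the transcribed strand, stood at 13 of 75 member starts (17.3%) and at 2.51% of the 32851 starts of the table. A C with at least 7 further C or T bases, starting anywhere from 25 bases before to 50 bases after the first base, was found for 68.0% of member starts and 21.5% of all starts. A match is a description of these letters, and annotated first bases can differ from the ones used in these cells. The sequences of 5 members follow, chosen because Rps6 and Rpl15 carry long runs, Rps27 and its paralogue Rps27l differ, and Rps28 and Rps27l come up again below. Each window runs from 10 bases before the annotated first base to 20 bases from it on, and capitals mark the pyrimidine run at the first base.
Rps6, chr4:86857348-86857377, minus strand: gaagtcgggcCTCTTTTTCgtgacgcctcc
Rpl15, chr14:18270967-18270996, minus strand: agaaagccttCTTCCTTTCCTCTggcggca
Rps27, chr3:90213629-90213658, minus strand: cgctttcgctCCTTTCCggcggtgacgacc
Rps27l, first start, chr9:66946076-66946105, plus strand: cctccccgccgcctctatcccggaagttgc
Rps27l, second start, chr9:66946403-66946432, plus strand: gggcttcagggtcactaacgggcctcgcag
Rps28, chr17:33824543-33824572, minus strand: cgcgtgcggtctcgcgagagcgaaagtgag
The runs held 9 bases in Rps6, 13 in Rpl15 and 7 in Rps27. Neither Rps27l start nor the Rps28 start had such a run at its first base. In the first Rps27l window, a C followed by 4 pyrimidines began at the next base. Rps27l met the wider criterion given above, and Rps28 did not.

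The 77 canonical genes were all strongly expressed. Together they took 12.5% of transcripts counted per length (TPM, levels divided by transcript length and scaled to the same total, computed with the shortest principal transcript of each gene), and 73 of them lay among the 200 genes of highest TPM. Their mean TPM over 6 libraries ranged 15.5-fold, from 303 to 4712, with a median of 1485 and quartiles of 1172 and 1899. Rps2, a protein near the messenger RNA entry of the small subunit, stood highest at 4712 ± 74.9 TPM (SD, n = 6 libraries). Rplp1, an acidic protein of the stalk on which elongation factors dock, followed at 4598 ± 108 TPM. Their ranges over libraries overlapped, 4591 to 4800 TPM for Rps2 and 4443 to 4704 for Rplp1, but within a library Rps2 was the higher in 6 of 6.

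Below them lay a gap. Rpl41, whose product is a very short peptide, came next at 3099 ± 35.9 TPM, and Rplp0, the base of the stalk, at 3026 ± 46.9, with overlapping ranges and Rpl41 the higher in 5 of 6 libraries. Rps12 (2868 ± 91.3 TPM) and Rpl13a (2860 ± 33.7 TPM) were next and also overlapped, each being the higher in 3 of 6 libraries. At the low end stood Rpl5 (701 ± 13.9 TPM) and Rpl37 (691 ± 14.3), which overlapped each other, Rpl5 being the higher in 5 of 6, then Rps25 (560 ± 12.5) and Rps20 (303 ± 6.90), whose ranges were apart from their neighbours. All these levels depend on the annotated transcript: the one used for Rps20 is 3706 nt long against a median of 751 nt for the canonical genes. For 26 of the 77 genes the shortest principal transcript differs from the mean over principal transcripts, most for Rps15a (640 against 3650 nt) and Rpl22 (474 against 1524 nt), and with the longer value their levels would be lower in proportion. Rpl41, Rps12, Rps20 and Rps25 were named here after their levels were seen.

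**Figure D1:**
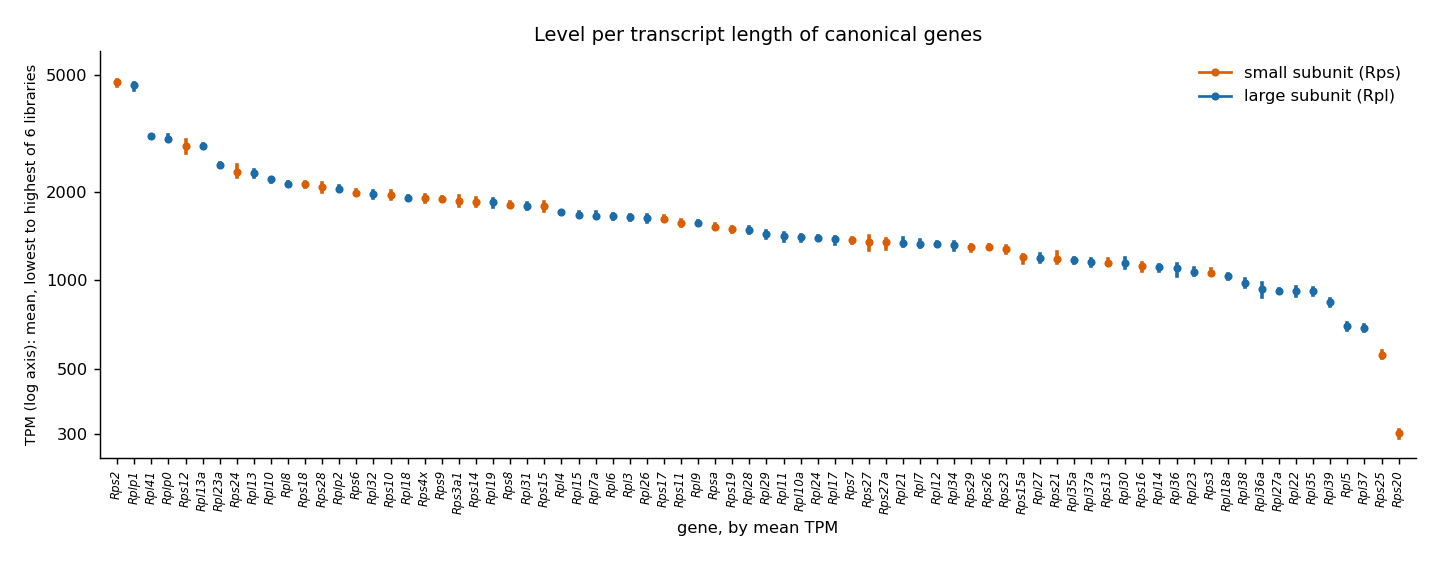
Level per transcript length (TPM, log axis) of 76 of the 77 canonical genes in order of their mean, with dots for the mean and bars from the lowest to the highest of the 6 libraries, small subunit in orange and large subunit in blue. The bars are short beside the 15.5-fold range between genes, and both subunits are spread along the whole order.

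Ribosomal protein genes have many processed pseudogene copies, so reads can match several places. The deposited values come from a program that divides such reads among genes by likelihood. Of the 77 canonical genes, 65 had values that were not whole numbers in all 6 libraries, and 6 had whole values throughout, Rpl32 and Rps15 among them. The 267 genes with -ps symbols named for members held 0.0220% to 0.0242% of counts per library. Pseudogene copies under other symbols were not looked for, so this is not the share of all copies. Exons of 37 of the 77 canonical genes overlap those of another annotated gene, for 10 of them a gene of at least 5 CPM. Whether counting used strand is not given in the sources used here. Values of single members are uncertain to that extent.

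After DKK1, the share of counts in ribosomal protein genes did not differ from that of controls beyond the spread of the samples. The 88 genes took 4.49%, 4.54% and 4.57% of all counts in the 3 controls and 4.39%, 4.56% and 4.60% in the 3 DKK1 libraries. The DKK1 values lay on both sides of the control values and enclosed them. The means were 4.53% ± 0.0395 and 4.52% ± 0.111 (SD, n = 3 each), a difference of -0.0143 percentage points. The mitochondrially encoded genes took 1.49% to 1.55% of counts in controls and 1.63% to 1.70% with DKK1. With the tested genes other than these as the denominator, the mean shares were 4.61% and 4.60%, a difference of -0.00802 percentage points. Their part in the results of single genes was not tested. In such bulk samples, fewer cells of a type and less RNA per cell cannot be told apart.

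No single member passed the test with group as the only term. With the replicate number added to edgeR, 1 was called higher and 1 lower, as described below. Of the 88 genes, 84 passed the low-count filter and were tested with edgeR's quasi-likelihood test, with Benjamini-Hochberg adjustment over 14635 genes and a threshold of 0.05. The test called 0 of the 84, while it called 0.895% of all tested genes, and the lowest adjusted p of a member was 0.441. At an unadjusted p under 0.05 there were 2 members, Rps28 and Rps27l, against 10.6% of all tested genes. DESeq2 and limma-voom also called 0 members without the replicate numbers, with 0 and 2 at an unadjusted p under 0.05. The median log2 fold change was -0.0123 over the 84 tested members, -0.0038 for small-subunit and -0.0155 for large-subunit symbols, and -0.0009 over all tested genes. Values were below 0 in 57 members and above 0 in 27, and over all tested genes below 0 in 7377 and above 0 in 7258.

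**Figure D2:**
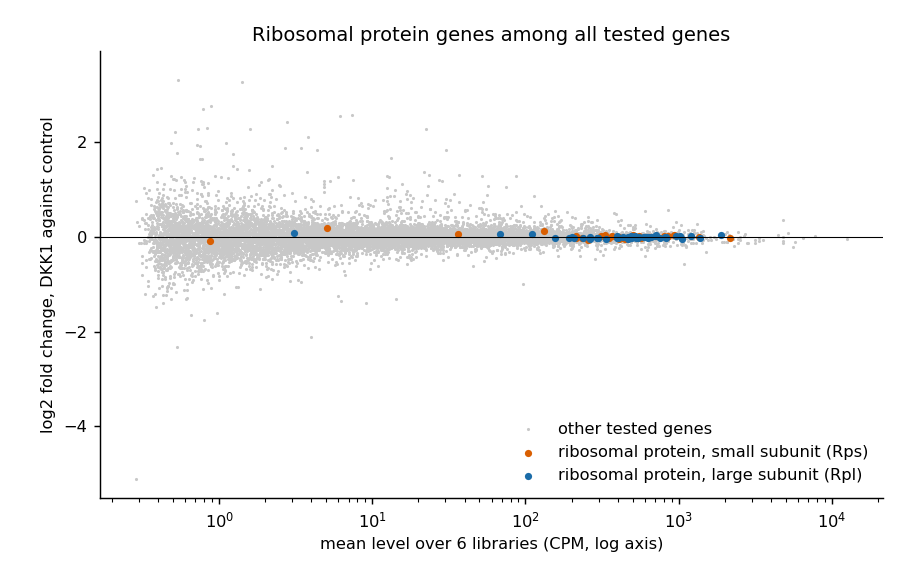
Log2 fold change of DKK1 against control (y axis) against the mean level in CPM (x axis, log) for the 14635 tested genes, with members of the small subunit in orange and of the large subunit in blue. Members above 100 CPM form a narrow band near 0; the 4 tested members annotated as pseudogenes lie at lower levels.

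The limits on any change were narrow. Canonical log2 fold changes ran from -0.08 (Rps28) to 0.04 (Rps25). The 95% interval of each of the 77 canonical genes lay within a 1.25-fold change either way, and for 74 of them within 1.1-fold. The lowest bound was -0.15 (Rps28) and the highest 0.12 (Rps24). The median standard error of the log2 fold change was 0.0329. Each gene also varied little from library to library: the median over genes of the SD of log2 CPM across the 6 libraries was 0.0324 for canonical genes, 0.103 for all tested genes and 0.0533 for tested genes of at least 100 CPM. The order of levels in the 2 groups was nearly the same, with a Spearman rho of 0.999 across the 77 genes. These genes are not independent and come from the same libraries. As their levels ranged 15.5-fold, changes this small could hardly alter the order, so the rho says little about DKK1.

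**Figure D3:**
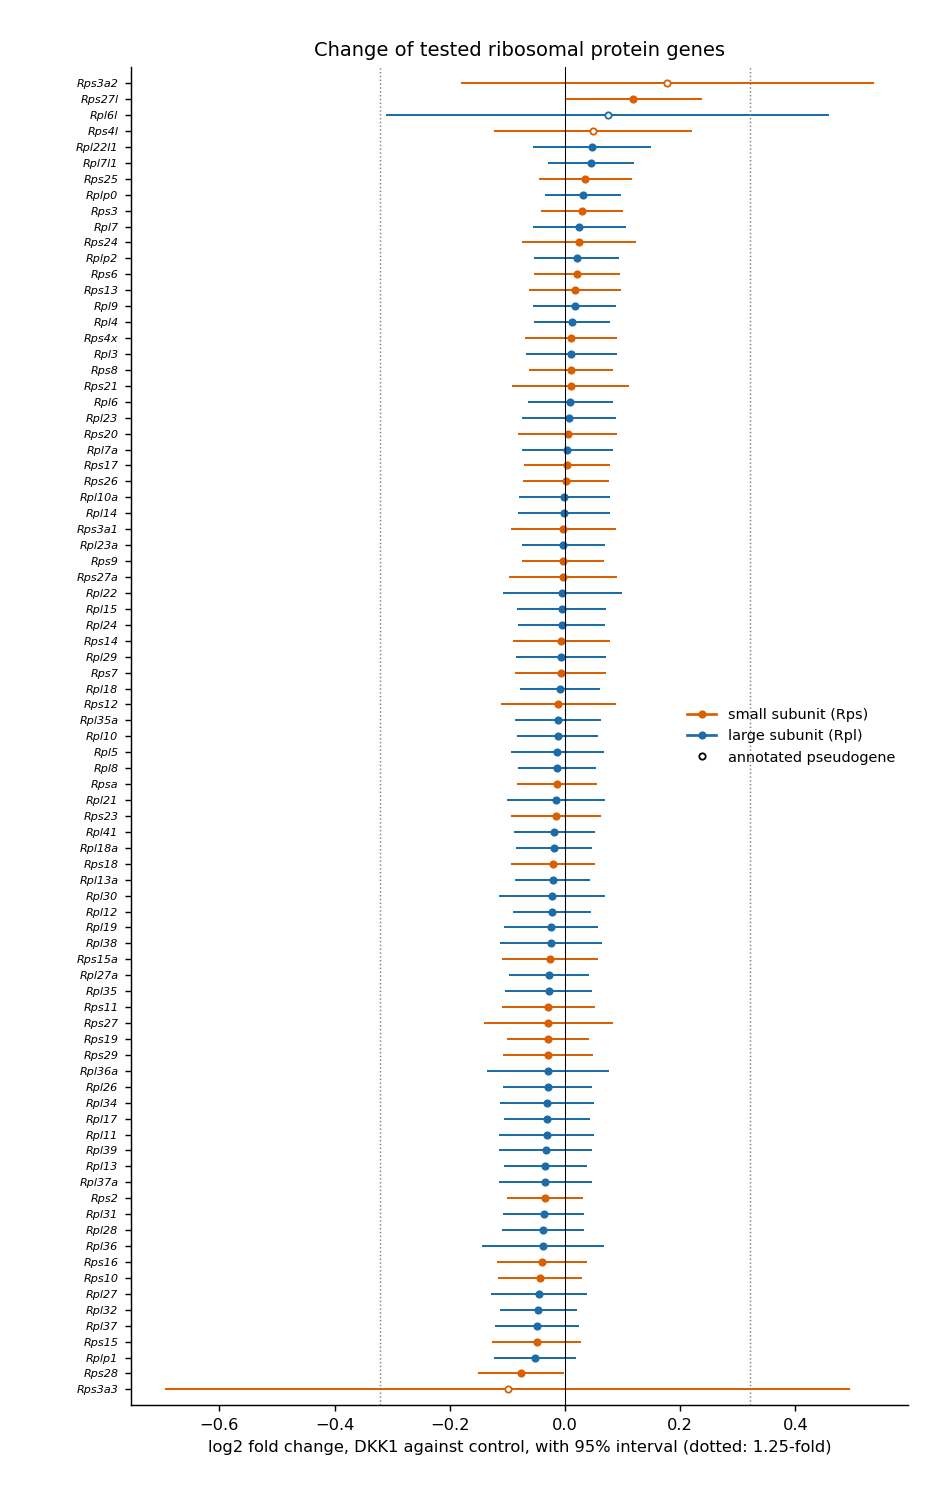
Log2 fold change of DKK1 against control for 83 of the 84 tested members with 95% intervals (edgeR, group only), sorted by value, small subunit in orange, large subunit in blue and annotated pseudogenes as open circles. Dotted lines mark 1.25-fold; all canonical intervals drawn lie between them, and the widest interval belongs to the pseudogene Rps3a3.

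The same-numbered samples deviated together across all tested genes, so the replicate number was also used as a block. Within the 77 canonical genes the correlations of these deviations were 0.179, 0.215 and 0.0138 for replicates 1, 2 and 3, so the third pair showed almost none. With the block, edgeR called 9.42% of all tested genes, 4.96% higher and 4.46% lower, and 20.7% had an unadjusted p under 0.05. Among the 84 members it called 1 higher (Rps27l) and 1 lower (Rps28), and 6 had an unadjusted p under 0.05. In the blocked fit without each library's GC and length trend, 22 of the 84 had an unadjusted p under 0.05, against 20.0% of all tested genes. That fit called 0 of the 84 higher, against 4.74% of all tested genes, and 2 lower, against 4.02%, or 8.77% of all genes in both directions. Without replicate 2 of both groups, the blocked count over all genes fell from 1379 to 612. With the block, intervals of 77 of the 77 canonical genes lay within 1.1-fold.

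Rps28, a small protein at the messenger RNA exit of the small subunit, lies on chromosome 17 (GRCm38, 33819027 to 33824562, minus strand). Its level was 262, 265 and 265 CPM in the controls and 245, 251 and 258 CPM with DKK1. The 3 DKK1 values lay below the 3 control values. The log2 fold change was -0.08 (SE 0.032, adjusted p = 0.441 with edgeR), and with the block -0.08 (SE 0.022, adjusted p = 0.0464). The blocked call held with limma-voom (adjusted p = 0.0427), with -ps counts added (0.0462) and with the GC and length trend removed (-0.08, adjusted p = 0.0344). Among blocked fits with 1 pair left out it held without replicate 3 (-0.09, adjusted p = 0.0440). It was lost without replicate 1 (-0.07, adjusted p = 0.158), without replicate 2 (-0.07, adjusted p = 0.308) and with DESeq2 (-0.08, adjusted p = 0.435), at similar folds. Of its exon bases 5.12% overlap Kank3 on the opposite strand, a gene at 4.18 CPM.

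Rps27l, a paralogue of Rps27 known as a target of the tumour suppressor Trp53, lies on chromosome 9 (GRCm38, 66946086 to 66949516, plus strand). Its level was 119, 135 and 123 CPM in the controls and 135, 139 and 137 CPM with DKK1. The second control was high and lay within 1 CPM of the lowest DKK1 sample, the groups overlapped once libraries were scaled by TMM factors, and the SD was 8.52 in controls and 1.80 with DKK1. The log2 fold change was 0.12 (SE 0.051, adjusted p = 0.462 with edgeR), and with the block 0.12 (SE 0.031, adjusted p = 0.0315). The blocked call held with limma-voom (adjusted p = 0.0341) and with -ps counts added (0.0306). Of the blocked fits with 1 pair left out, only the one without replicate 2 called it (0.17, adjusted p = 0.0300), against 0.09 (adjusted p = 0.125) without replicate 1 and 0.10 (adjusted p = 0.151) without replicate 3. The call was also lost when each library's trend with GC content and transcript length was removed together with the block, where the value fell to 0.07 (adjusted p = 0.198), and with DESeq2 and the block (adjusted p = 0.302).

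Its partner Rps27, a zinc-binding protein of the small subunit, had 209, 216 and 223 CPM in the controls and 199, 213 and 226 CPM with DKK1. These values overlapped fully (log2 fold change -0.03, SE 0.048, adjusted p = 0.902 with edgeR). Per transcript length, Rps27l stood at 39.3%, 43.3% and 38.1% of Rps27 in the controls and at 47.0%, 45.2% and 41.9% with DKK1. The means were 40.2% ± 2.74 and 44.7% ± 2.62 (SD, n = 3), and the groups overlapped, while the ratio was higher with DKK1 in each of the 3 numbered pairs. The ratio was not tested.

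The other paralogues split into ones that these fibroblasts expressed and ones at or near background. Rpl22l1, the second copy of Rpl22, had 67.4, 65.1 and 69.5 CPM in the controls and 68.9, 67.3 and 73.4 with DKK1, which overlapped. Per length it stood at 30.2%, 27.2% and 29.3% of Rpl22 in controls and 31.1%, 28.4% and 30.4% with DKK1, higher in each numbered pair while the groups overlapped. This percentage rests on the shortest principal transcript of Rpl22: with the mean principal length, an alternative added after seeing the data, it was 92.9% ± 5.07 in controls and 96.3% ± 4.47 with DKK1. Rpl7l1, a large-subunit assembly factor related to Rpl7, had 109, 107 and 110 CPM in the controls and 112, 113 and 112 CPM with DKK1. All DKK1 values of Rpl7l1 lay above the controls, at a log2 fold change of 0.04, an SE of 0.032 and an adjusted p of 0.703 with edgeR. Its level per length was 6.89% ± 0.160 of Rpl7 in controls and 6.99% ± 0.250 with DKK1, and these overlapped.

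Rps4l, annotated as a pseudogene on chromosome 6 that resembles the X-linked Rps4x, was expressed at 35.3, 37.1 and 34.7 CPM in the controls and 40.8, 37.0 and 33.4 CPM with DKK1. The DKK1 values fell on both sides of the controls. Its values were whole numbers in all 6 libraries, while those of Rps4x were not, and per length it reached 4.38% ± 0.170 of Rps4x in controls and 4.50% ± 0.599 with DKK1. Rps3a2, a processed copy of the Rps3a family, had 4.08 to 5.66 CPM in controls and 4.89 to 6.10 with DKK1, and Rpl6l 2.52 to 3.48 and 2.92 to 3.39, in both cases with overlap. Their intervals were wide, from -0.18 to 0.53 for the log2 fold change of Rps3a2 and from -0.31 to 0.46 for that of Rpl6l.

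The 4 untested members were nearly silent. Rpl3l, the striated-muscle copy of Rpl3, had 1 count in DKK1 replicate 2 and 0 in the other 5 libraries. Rpl10l, a testis copy of Rpl10, had 1 count in DKK1 replicate 1 and 0 elsewhere, and Rps12l1 had 0 in all 6. Rpl39l, the testis copy of Rpl39, had 5 counts in each control and 2, 2 and 5 with DKK1, too few to compare. A count of 3, the floor chosen here for reading a level, equals 0.0864 to 0.133 CPM depending on the library, and no level is read from the smaller counts.

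**Figure D4:**
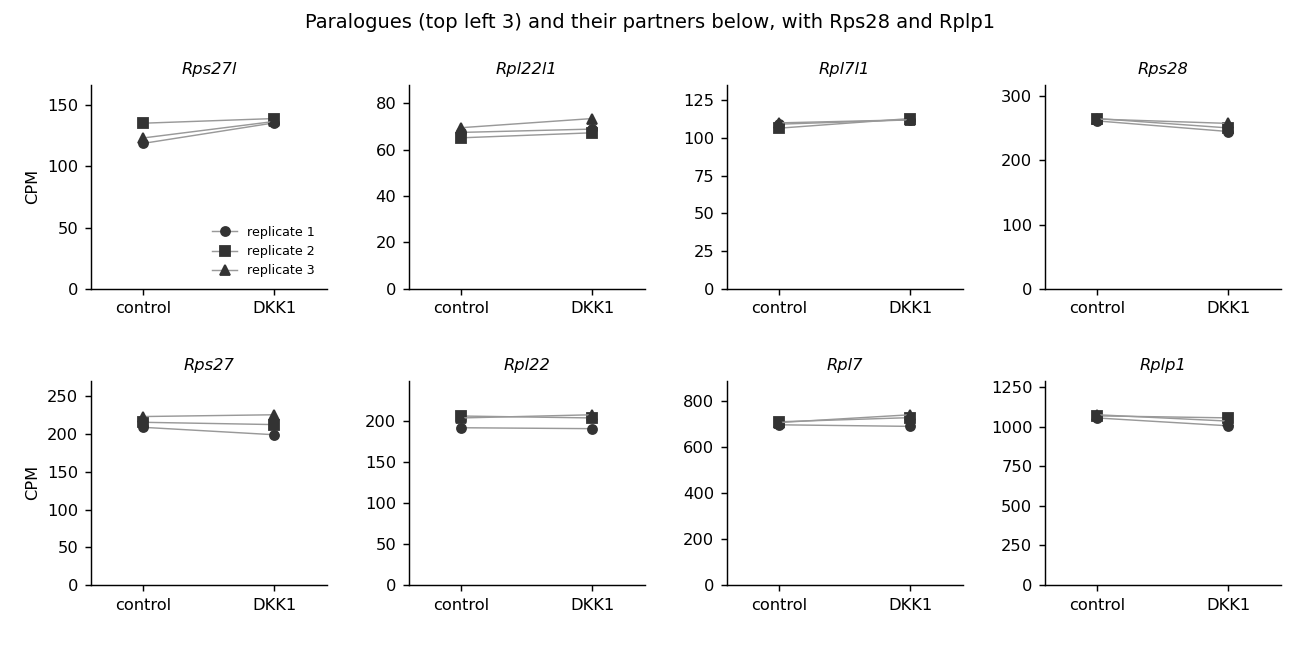
CPM of 3 paralogues (Rps27l, Rpl22l1 and Rpl7l1, upper row) and their partners (Rps27, Rpl22 and Rpl7, lower row), with Rps28 and Rplp1 on the right; each line joins the same-numbered control and DKK1 libraries and the y axes start at 0. Rps27l is higher and Rps28 lower with DKK1 in each numbered pair, by small amounts.

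Among the proteins of the stalk, Rplp0 and Rplp1 had no overlap between groups on the TMM-scaled levels, and their values lay in opposite directions. Rplp0, widely used as a reference gene in PCR assays, had 1852, 1854 and 1870 CPM in the controls and 1870, 1938 and 1911 with DKK1. The first DKK1 value lay slightly below the highest control in CPM and rose above it only after TMM scaling. The log2 fold change was 0.03 (SE 0.028, adjusted p = 0.769 with edgeR). Rplp1 had 1057, 1070 and 1077 CPM in the controls and 1007, 1057 and 1037 with DKK1. In CPM the second DKK1 library lay within 1 CPM of the lowest control and slightly above it, and it fell below only after TMM scaling. The log2 fold change was -0.05 (SE 0.030, adjusted p = 0.634, and 0.0965 with the block). Rplp2, the partner of Rplp1, had 391 ± 1.77 CPM in controls and 398 ± 11.2 with DKK1 (SD, n = 3).

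On the TMM-scaled levels, the groups of 7 of the 84 tested members did not overlap (8.33%), 2 higher and 5 lower with DKK1, while 16.3% of all tested genes had groups without overlap. The other members with no overlap were Rpl13, Rpl32 and Rpl37, each lower with DKK1 by at most 0.05 on the log2 scale; Rpl13 was named after its values were seen. Rpl32 had 470, 468 and 478 CPM in the controls and 455, 464 and 457 with DKK1. For Rpl37 the values were 267, 269 and 268 CPM in the controls and 256, 258 and 267 with DKK1, the last of which lay just under the lowest control.

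Several other well-known members had groups that overlapped. Rpl5 and Rpl11, which bind Mdm2 together when ribosome assembly is disturbed, had 658 ± 13.2 and 547 ± 12.2 CPM in controls and 655 ± 22.6 and 537 ± 17.8 with DKK1 (SD, n = 3). Their groups overlapped, with log2 fold changes of -0.01 (SE 0.035) and -0.03 (SE 0.035). In the blocked fit without each library's GC and length trend, Rpl5 passed the test at -0.07 (adjusted p = 0.0412 with edgeR), while 24.3% of its exon bases overlap Fam69a on the opposite strand, a gene at 28.1 CPM. Rps6, the substrate of the S6 kinases, had 791 ± 14.9 CPM in controls and 806 ± 22.4 with DKK1. Rps19, a gene mutated in Diamond-Blackfan anaemia, had 438 ± 2.24 and 431 ± 9.07 CPM, and Rpsa, also known as the laminin receptor, 1358 ± 14.9 and 1349 ± 24.2 CPM. The groups overlapped for each of these 3 genes.

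Of the most abundant members by counts, Rps2 had 2150, 2174 and 2204 CPM in the controls and 2081, 2143 and 2170 with DKK1. The first DKK1 library was the lowest of the 6, and the third lay within the range of the controls. Rpl13a had 1373, 1357 and 1407 CPM in the controls and 1345, 1368 and 1377 with DKK1, again with the first DKK1 library lowest. The log2 fold changes were -0.03 (SE 0.028) for Rps2 and -0.02 (SE 0.028) for Rpl13a. Rpl4, which lines the exit tunnel of the large subunit, had 1185, 1209 and 1193 CPM in the controls and 1191, 1216 and 1223 with DKK1, with overlap.

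The first DKK1 library was low across the class. On the log2 CPM scale with TMM factors, all 77 canonical genes lay below their own mean over the 6 libraries in DKK1 replicate 1, and 68 of them had their lowest value there. The median deviation was -0.0473 in that library, -0.0517 for the small and -0.0464 for the large subunit, and between -0.0073 and 0.0176 in the other 5. The 1104 other tested genes under 1000 nt had a median deviation of -0.0180 in the same library, and the 77 mitochondrial ribosomal protein genes one of -0.0079. With the GC and length trend of each library removed, the canonical median there was -0.0337, and 75 of the 77 values were below 0. On that scale DKK1 replicate 3 (-0.0200, 62 below 0) and control replicate 3 (-0.0135, 60 below 0) were low as well, and control replicates 1 and 2 were high (0.0256 and 0.0380). The part of transcript length or GC content in this deviation was not tested further.

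Pair by pair, the median log2 difference of the canonical genes was -0.0458 in replicate 1 (6 higher, 71 lower with DKK1), -0.0023 in replicate 2 (36 and 41) and 0.0061 in replicate 3 (46 and 31). With the GC and length trend of each library removed, these medians were -0.0638, -0.0273 and -0.0042, and those of all tested genes -0.0171, 0.0013 and -0.0007. Of the 77 genes, 21 were lower in all 3 pairs and 4 higher in all 3, while of the 14635 tested genes 3049 were lower and 3049 higher in all 3. Without DKK1 replicate 1, the median log2 fold change of the tested members turned from -0.0123 to 0.0064, and the difference in share of counts from -0.0143 to 0.0486 percentage points. The difference in share also turned without control replicate 3, to 0.00456, and over the 6 libraries left out in turn it ran from -0.0569 to 0.0486. In the edgeR fit on all 6 libraries with the trend removed, the median of the members was -0.0314 and that of all tested genes -0.0069.

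**Figure D5:**
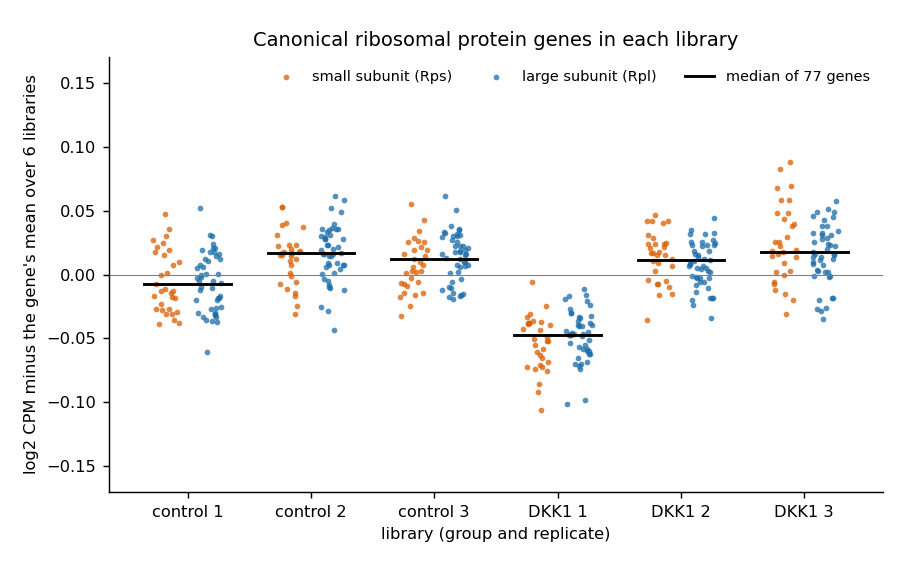
Deviation of log2 CPM from each gene's mean over the 6 libraries (y axis) for the 77 canonical genes in each library (x axis), small subunit in orange, large subunit in blue, with a black bar at the median. All 77 points of DKK1 replicate 1 lie below 0, with a median of -0.0473, and the other 5 libraries scatter on both sides of 0.

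Rps27a, a member that encodes ubiquitin fused to a small-subunit protein, had 392, 395 and 392 CPM in the controls and 371, 403 and 406 with DKK1, which lay on both sides. Of the ribosomal proteins that the symbol rule leaves out, 3 are given here. Fau, a ubiquitin-like fusion, had 355 ± 3.86 CPM in controls and 350 ± 3.80 with DKK1, Rack1, a signalling scaffold on the small subunit, 1100 ± 18.1 and 1089 ± 34.4, and Rpl36al, the autosomal copy of Rpl36a, 167 ± 6.69 and 164 ± 4.45 CPM (SD, n = 3).

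Genes around the ribosome were read from lists chosen with earlier results known; without the block, edgeR called 0 genes in each of them. The counts with the block stand beside 4.96% of all tested genes called higher and 4.46% lower, and no test of the lists against those shares was made. Among 20 other TOP messages, mostly translation factors, the median log2 fold change was 0.0133. With the block 2 were called higher, Pabpc1, the poly(A)-binding protein (0.10, adjusted p = 0.00157), and Npm1, a nucleolar chaperone (0.10, adjusted p = 0.00226). Called lower was 1, the intermediate filament gene Vim (-0.13, adjusted p = 0.000723). After TMM scaling the groups of Npm1 and Vim overlapped, while those of Pabpc1 did not. The most abundant of the 20, the elongation factor Eef1a1, had 7740 ± 23.4 CPM in controls and 7782 ± 147 with DKK1.

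Of 26 ribosome biogenesis genes, 20 had values above 0, with a median of 0.0329, while 7258 of all 14635 tested genes lay above 0. With the block 3 were called higher, against 4.96% of all tested genes, and 0 lower. They included Nop56, a core protein of box C/D snoRNA particles (0.13, adjusted p = 0.00552), and Rrs1, an assembly factor of the large subunit (0.14, adjusted p = 0.0277). Nucleolin, Ncl, was the last of them (0.07, adjusted p = 0.0418). After TMM scaling the groups of Ncl overlapped, while those of Nop56 and Rrs1 did not. Of 12 regulators of translation, 0 were called higher and 2 lower with the block, against 4.46% of all tested genes lower. Eif4ebp1, a translation repressor downstream of mTOR, had 109 ± 1.52 CPM in controls and 98.8 ± 2.21 with DKK1 (log2 fold change -0.15, adjusted p = 0.00401 with edgeR and the block). Atf4, the stress-response factor, had 202 ± 7.96 and 190 ± 8.81 CPM (-0.09, adjusted p = 0.0197). After TMM scaling the groups of Atf4 overlapped, while those of Eif4ebp1 did not. Mtor and Larp1 were not called. The 7 tested snoRNA host genes, whose spliced RNAs also begin with TOP tracts, had a median of -0.101, with 3 above and 4 below 0. The 77 mitochondrial ribosomal protein genes, which serve the separate ribosome of that organelle, had a median of 0.0212, and neither list had a call with the block.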

How the data were processed

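RNA sequencing values of 3 control and 3 DKK1 samples were used. The authors deposited 1 table of estimated counts (expected counts) per gene, in which RSEM divides reads that match several genes among them, per the submitters' processing notes. Alignment and counting used STAR and RSEM, with edgeR 4.2.1 and the builds GRCm38 and mm10 also named, per the submitters' processing notes; settings and strandedness are not given in the sources used here. In the deposited columns, 9.62% to 10.6% of values were not whole.

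Symbols were found for 45143 of 45706 identifiers (98.77%). Positions, lengths and overlaps came from GENCODE M21 (GRCm38), and start sequences from RefSeq (GRCm38.p6). Expected counts were rounded, and the tests used edgeR 4.0.16 under R 4.3.3 (filterByExpr with a minimum count of 10, TMM factors, glmQLFit and glmQLFTest, two-sided, group as the only term), with Benjamini-Hochberg adjustment over 14635 genes. Standard errors are the absolute log2 fold change over the square root of F. CPM used library totals. The script was tested on simulated data. Intervals and floors cover counting error or the spread between samples only.

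Alternatives were other scalings, filters, rounding, DESeq2 1.42.0, limma-voom (limma 3.58.1), removal of GC and length trends, addition of -ps counts, the replicate block, and left-out samples or pairs. The titles number the replicates; the deviations from the group mean correlated between same-numbered samples at 0.274, 0.231 and 0.405 over all tested genes, each over 0.1, so the numbers were taken to pair the samples. Members and lists were chosen with earlier results of these data known. Named genes were members called in the test (0), the 6 highest and 6 lowest fold changes at 1 CPM or more, the 6 of highest CPM, the paralogue pairs, 7 well-known members (Rplp0, Rps6, Rpl5, Rpl11, Rps19, Rps27a and Rpsa), the 4 ribosomal proteins outside the symbol rule, and up to 3 called genes a direction and list. The block's called members were named too. Results of 2 genes are not reported here, and 1 of them is left out of the plots that name genes.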

Additional observations from a re-analysis of the deposited data

How the results depend on the processing

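The count of called ribosomal protein genes was 0 higher and 0 lower under every alternative run without the replicate block. With the replicate block it was 1 higher and 1 lower, the same with limma-voom and the block and with -ps counts added and the block, 0 higher and 0 lower with DESeq2 and the block, and 0 higher and 2 lower in the blocked fit without the GC and length trend. Over fits with a sample or a pair left out it ranged from 0 to 1 higher and from 0 to 1 lower. The count over all genes was 131, and became 329 with no low-count filter, 289 with DESeq2, 558 with DESeq2 and the block, 1379 with the block, 612 to 1312 with the block and a pair left out, and 36 to 139 with 1 sample left out. The median log2 fold change of members ran from -0.0317 to 0.0064, and the difference in share of counts from -0.0569 to 0.0486 percentage points. Of 34 named tested genes, 17 changed sign in at least 1 of 24 alternatives; the cause was not tested. With the GC and length trend removed, without and with the block, Rpl22l1 gave -0.0195 and -0.0196, Rpl4 -0.0143 and -0.0142, Rpl7 -0.0183 and -0.0182, Rpl3 -0.0146 and -0.0147, Rps4x -0.0163 and -0.0163, and Rps6 -0.00536 and -0.00538. With library totals Rpl22 gave 0.000556 and Rps27a 0.00133. With 1 sample left out, the ranges that spanned 0 were -0.0394 to 0.00161 (Rack1), -0.0240 to 0.00570 (Rpl10), -0.0351 to 0.0297 (Rpl22), -0.0535 to 0.0114 (Rpl36a), -0.00419 to 0.0360 (Rpl3), -0.0353 to 0.00998 (Rpl5), -0.0398 to 0.191 (Rpl6l), -0.0705 to 0.0141 (Rps27), -0.0269 to 0.0358 (Rps27a), -0.0265 to 0.118 (Rps4l) and -0.00899 to 0.0384 (Rps4x). With a pair left out and the block they were -0.0231 to 0.00611 (Rpl10), -0.0194 to 0.00557 (Rpl22), -0.00257 to 0.0231 (Rpl3), -0.0351 to 0.153 (Rpl6l), -0.0296 to 0.0351 (Rps27a), -0.00513 to 0.364 (Rps3a2), -0.0338 to 0.0879 (Rps4l), -0.000892 to 0.0276 (Rps4x) and -0.0273 to 0.00675 (Rpsa). In fits with a group left at 2 samples or a pair left out, the spread was estimated from the rest. Depth limited the 4 untested members and the annotated pseudogenes under 10 CPM.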
